A study of Mus musculus with 21 samples.

Results

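Fgf4 and the fibroblast growth factor (FGF) receptor genes were followed through 21 RNA libraries of mouse embryonic stem cells. The set was defined by name as Fgf4, Fgfr1, Fgfr2, Fgfr3 and Fgfr4. Of these 5 members, 4 have a row among the 16443 genes of the deposited expression table, and Fgfr3 was not analysed here. All libraries came from 2TS22C, a line in which the endogenous SOX2 protein can be silenced. The untransduced cells (NTC) carry the genotype label WT and no doxycycline is listed for them. The other 3 lines had endogenous SOX2 silenced, received a lentivirus and were treated with doxycycline (DOX). Their lentiviruses carried SOX2, SOX17FNV (FNV below, a changed version of SOX17, which is a factor of endoderm) or miniSOX, a factor the labels give by name only. Cells were kept in serum and LIF (SL) or in that medium with 2i, the pair of MEK and GSK3 inhibitors. The 8 groups of line by medium hold 3 NTC, 4 SOX2, 4 FNV and 2 miniSOX libraries in 2i, and 2 libraries of each line in SL. NTC cells differ from the rescue lines in transduction, silencing and doxycycline at once, so these cannot be told apart in any comparison with NTC.

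FGF4 is the ligand that embryonic stem cells make themselves. It binds FGF receptors together with heparan sulphate, and the receptors, which are tyrosine kinases, pass the signal through adaptors and RAS to the MEK and ERK kinases. In the early embryo and in embryonic stem cells this route is known for moving cells out of naive pluripotency and for the choice of primitive endoderm. FGFR1 and FGFR2 are the receptors best known in that setting, and FGFR2 is also known as the receptor of the trophectoderm. The MEK inhibitor of 2i blocks the route below the receptors.

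Fgf4 is also a textbook target of SOX2 and the octamer factor OCT4, which bind side by side in an enhancer inside its 3′ untranslated region. Because the lines differ in their SOX factor, this site is shown here. The annotated Fgf4 transcript of 3030 bases holds 1 stretch with a SOX-type piece of 6 bases and an octamer-type piece of 8 bases, both in capitals, with 4 bases between them:
Fgf4 3′ UTR site: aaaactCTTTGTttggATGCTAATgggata
This stretch lies at chr7:144864388-144864417 (GRCm38/mm10, plus strand, GENCODE M21), in exon 3 of 3, and its first capital is 1453 bases after the stop codon. The pattern searched was CNTTGTNNNNATGCNAAT on both strands. Among 7676 transcripts of at least 3030 bases, searched over their last 3030 bases, 3 held this pattern (0.0391%), and Fgf4 is 1 of these. The pattern has the spacing of the Fgf4 site, so the match in Fgf4 itself is no test. The same pieces with 0 or 1 base between them, CNTTGTATGCNAAT and CNTTGTNATGCNAAT, were in 2 (0.0261%) and 1 (0.013%). In the longest coding transcripts of Fgfr1, Fgfr2 and Fgfr4 none of the 3 spacings was found. A match in letters is a description of the sequence and no binding was measured here.

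The libraries came in 2 sets, called waves here, told apart by their organism label. Title form sets apart the libraries called biological replicates but not the miniSOX ones, whose titles are formed as in the first wave. That miniSOX shares a wave with p21 and p31 is therefore an assumption of every miniSOX change given with the wave term. The first wave has 12 libraries: NTC, SOX2 and FNV, each with replicates 1 and 2 per medium. The other wave has 9, made up of the 5 libraries named p21 or p31, all in 2i, and the 4 miniSOX libraries. Library totals were made equal before deposit (14044316 to 14047262), so the sequencing depth behind a value is unknown and counting error cannot be stated. Over genes with a mean between 500 and 1500, replicates 1 and 2 of a group differed on the log2 scale with an SD of 0.107 to 0.301. Between libraries of 1 group in different waves it was 0.309 to 0.615. Later titles name biological replicates of the same groups as the p21 and p31 columns. No title holds p21 or p31, so their match to those titles is an assumption. No label says that replicates 1 and 2 were separate cultures. The spread that the p-values rest on may then be technical, and they speak for these samples only. The Sox2 value stood at 19 to 60 in FNV and miniSOX, at 533 to 2697 in NTC and at 921 to 1509 in SOX2 libraries. In SOX2 cells the silenced gene and the lentiviral SOX2 were not told apart in this value. All 11 naive pluripotency markers were measured, and their summed value was between 21072 (miniSOX cells in SL) and 71677 (SOX2 cells in 2i).

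Changes below are log2 differences of the deposited value plus 1, from a single limma model over all libraries that fits the 8 groups and the wave. A gene passed where its Benjamini-Hochberg adjusted p over 16443 genes was under 0.05. Overlap of libraries between groups is given as description, since groups are small and its share over all genes was not counted. All 4 members differed between the waves, where 37.7% of all genes did. In the second wave Fgf4 (log2 change -0.82 ± 0.09 (SE), adjusted p = 2.28e-05) and Fgfr4 (-1.17 ± 0.36, adjusted p = 0.0212) were lower. Fgfr1 (0.41 ± 0.12, adjusted p = 0.0131) and Fgfr2 (1.43 ± 0.23, adjusted p = 0.000336) were higher. The shift was not equal in every line. In 2i, mean Fgfr1 went from 2438 to 5154 in NTC, from 2638 to 3352 in SOX2 and from 5012 to 5110 in FNV cells. Mean Fgfr2 went from 26.5 to 96 in NTC, from 21.5 to 96.5 in SOX2 and from 54.5 to 78.5 in FNV cells. Wave and line are the same split for miniSOX in SL, where every other group is of the first wave and the correction rests on the 2i libraries. Values with and without the wave term are therefore given there.

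**Figure D1:**
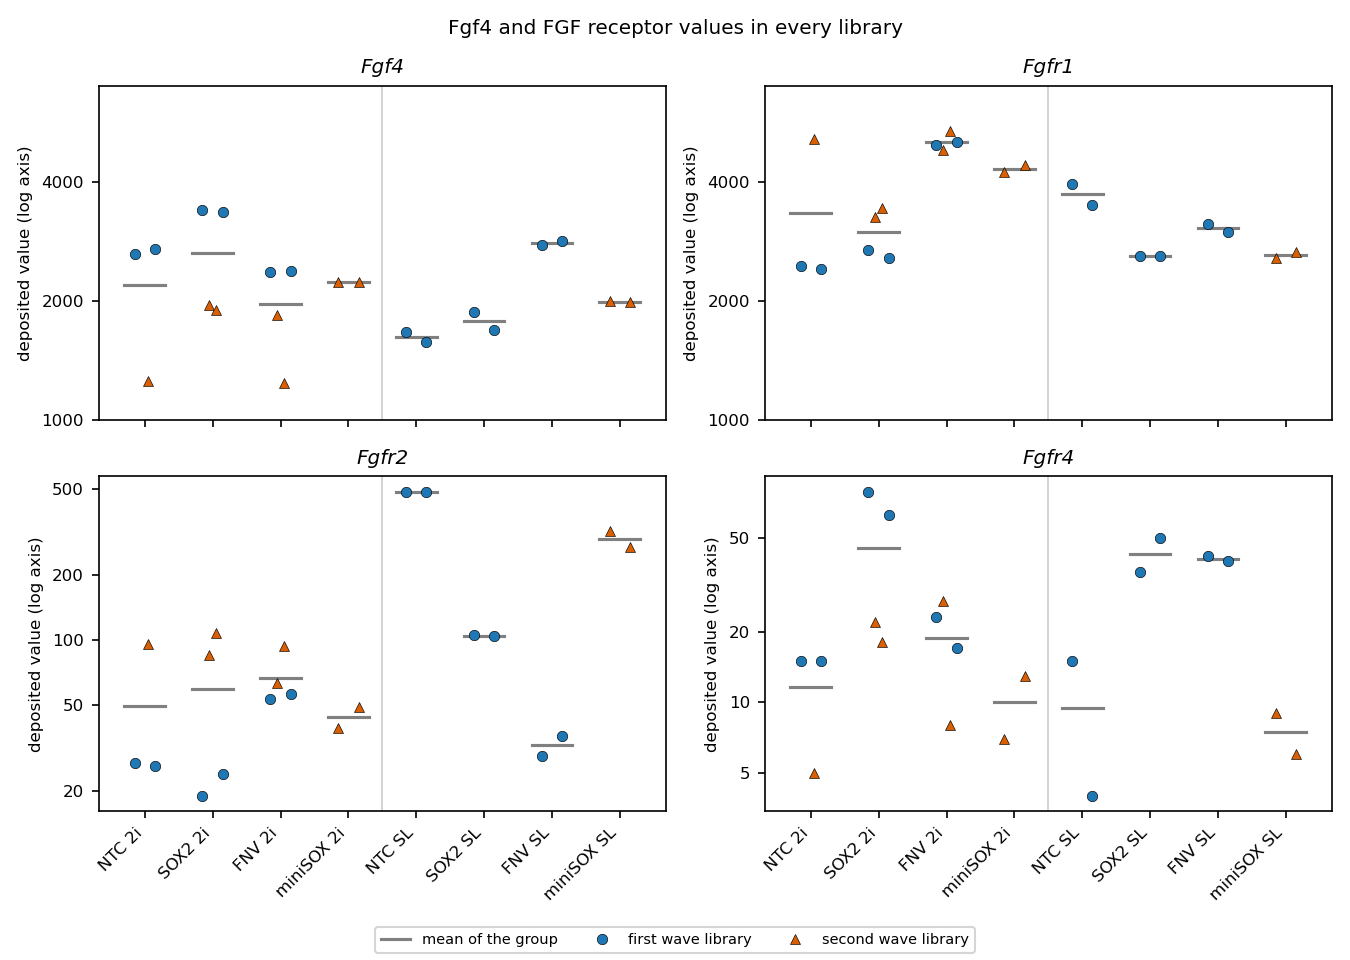
Deposited value (vertical log axis) of Fgf4, Fgfr1, Fgfr2 and Fgfr4 in each of 21 libraries, grouped by line and medium; circles are first-wave and triangles second-wave libraries, and grey lines are group means. In NTC cells in 2i the p31 triangle stands apart from the 2 circles in all 4 panels. Fgfr2 in SL is ordered NTC, miniSOX, SOX2, FNV with no overlap, at 2 libraries per line.

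Counts of members that passed were read against the share of all genes that passed. In 2i, 2 of the 4 measured members passed between SOX2 and NTC cells (28.7% of all genes), 1 between FNV and NTC (39.7%) and 1 between miniSOX and NTC (27.7%). Between FNV and SOX2 2 passed (25.2%), and between miniSOX and FNV 2 (7.66%). Between miniSOX and SOX2 limma called 0 members (14.9% of all genes), with 2 at an unadjusted p under 0.05. In SL, 2 members passed between SOX2 and NTC (15%), 3 between FNV and NTC (30%) and 3 between miniSOX and NTC (19.6%). Between FNV and SOX2 2 passed (21.4%), between miniSOX and SOX2 1 (21.6%) and between miniSOX and FNV 1 (15.2%). Between media, 2 members passed for NTC (24.6%), 2 for SOX2 (44.9%), 1 for FNV (40.6%) and 2 for miniSOX cells (33.4%). The medium response differed from that of NTC for 1 member with SOX2 (18.8%), 3 with FNV (25.8%) and 1 with miniSOX (13.7%). The FNV against SOX2 difference differed between media for 2 members (20.8%). With replicates 1 and 2 of each group averaged to 1 sample, 0 of the 80 member results passed in limma, and 21 had an unadjusted p under 0.05.

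**Figure D2:**
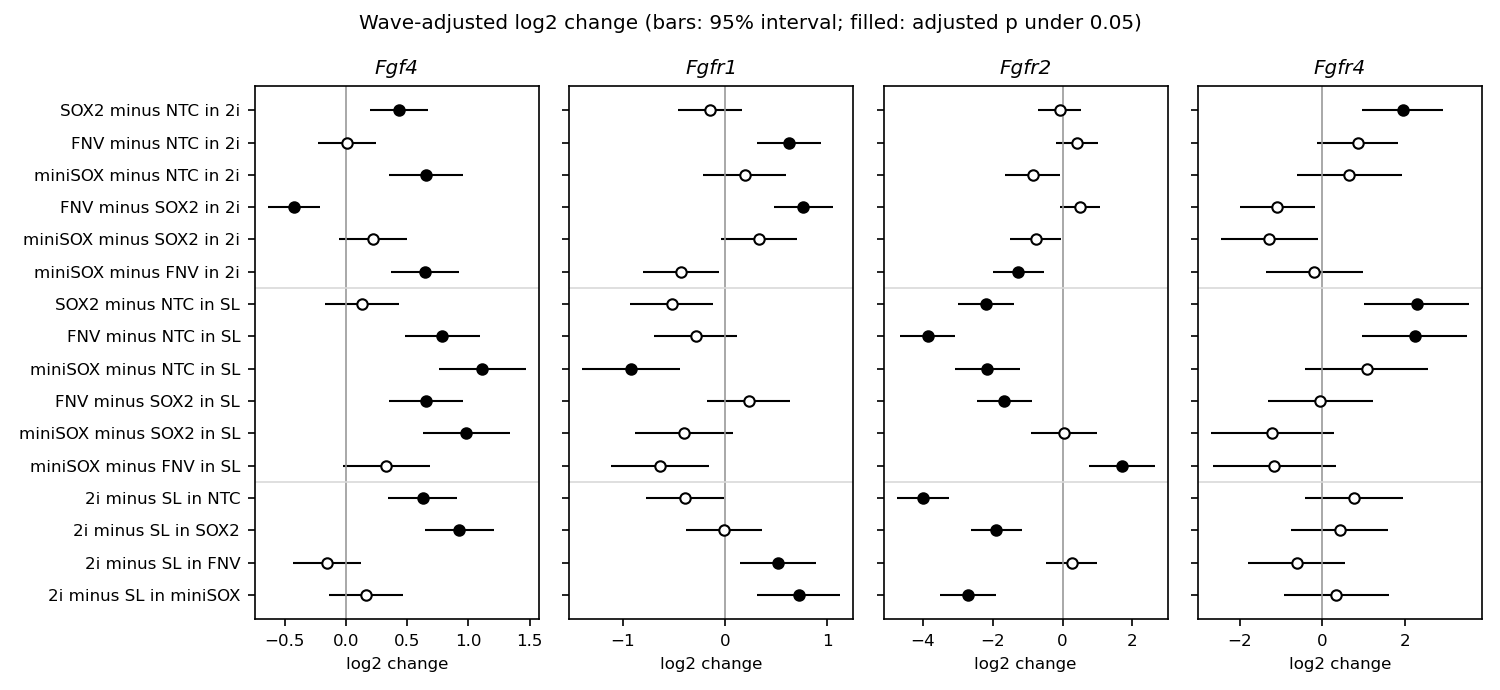
Log2 change (horizontal axis) of each member in 16 comparisons of lines within a medium and of media within a line, from the model with a wave term; bars are 95% intervals and filled points passed at an adjusted p under 0.05. Fgfr2 has the longest shifts, down to -4.01 between media in NTC cells, and Fgf4 stays within -0.43 and 1.11.

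Fgf4 (ENSMUSG00000050917, chromosome 7, 144847367 to 144865243, plus strand), the ligand, was expressed in every library and had a mean above that of 91.9% of all genes. In NTC cells it was 2635, 2716 and 1257 (p31) in 2i, with 1675 and 1582 in SL. SOX2 cells gave 3404, 3358, 1962 (p21) and 1900 (p31) in 2i and 1880 and 1694 in SL. In both lines the first-wave 2i libraries lay above the SL libraries and every p21 or p31 library lay below the first-wave 2i ones. FNV cells gave 2374, 2384, 1851 (p21) and 1245 (p31) in 2i and 2781 and 2838 in SL. Their order was the opposite, with SL above every 2i library. For miniSOX cells both 2i libraries stood at 2240 and the SL libraries at 2006 and 1989, a step in the same direction as in NTC.

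Fgf4 rose in 2i against SL in NTC (log2 change 0.63 ± 0.13 (SE), adjusted p = 0.00336) and SOX2 cells (0.93 ± 0.13, adjusted p = 5.56e-05). The change was -0.15 ± 0.13 in FNV (adjusted p = 0.384) and 0.17 ± 0.14 in miniSOX cells (adjusted p = 0.416). The response of FNV cells differed from that of NTC cells by -0.78 ± 0.18 (adjusted p = 0.00516). The differences of SOX2 (0.30 ± 0.18, adjusted p = 0.262) and miniSOX cells (-0.46 ± 0.19, adjusted p = 0.137) from NTC did not pass. Within the first wave alone the changes were 0.72 in NTC (adjusted p = 5.28e-05), 0.92 in SOX2 (6.04e-06) and -0.24 in FNV cells (0.0107). Without the wave term the NTC (0.35, adjusted p = 0.559) and SOX2 (0.52, adjusted p = 0.243) calls were lost, as was the FNV difference from NTC (-0.92, adjusted p = 0.213). With only the groups compared in the model that difference was -0.78 (adjusted p = 0.0509), and without FNV p21 the change in FNV cells passed (-0.24, adjusted p = 0.013).

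Between the rescue lines, Fgf4 was lower in FNV than in SOX2 cells in 2i (-0.43 ± 0.10, adjusted p = 0.00619) and higher in SL (0.65 ± 0.14, adjusted p = 0.00482). This difference between media passed (-1.08 ± 0.17, adjusted p = 0.000751). Within waves, the 2i difference was -0.51 in the first (adjusted p = 0.000369) and -0.35 in the second (adjusted p = 0.348). With no wave term the 3 values were -0.43 (adjusted p = 0.318), 0.65 (0.298) and -1.08 (0.145). With only these groups in the model the 2i difference had an adjusted p = 0.0523.

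Against NTC in 2i, Fgf4 was higher in SOX2 cells (0.43 ± 0.11, adjusted p = 0.00868) and its change in FNV cells was 0.01 ± 0.11 (adjusted p = 0.975). Without NTC p31 the SOX2 change was 0.30 (adjusted p = 0.0805), and the FNV change turned to -0.13 (adjusted p = 0.446). Within waves the SOX2 change was 0.34 (first, adjusted p = 0.00299) and 0.62 (second, adjusted p = 0.139), and the FNV change -0.17 (0.0514) and 0.27 (0.446). MiniSOX cells were higher than NTC (0.65 ± 0.14, adjusted p = 0.00346) and FNV cells (0.65 ± 0.13, adjusted p = 0.0105), and by 0.22 ± 0.13 than SOX2 cells (adjusted p = 0.301). Within the second wave these were 0.83 (adjusted p = 0.0481, with a single NTC library), 0.56 (0.195) and 0.21 (0.513). Without the wave term they were 0.11 (adjusted p = 0.872), 0.24 (0.797) and -0.19 (0.772). The call against FNV cells also ended without miniSOX replicate 1 (adjusted p = 0.0848) or 2 (0.0956).

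In SL the highest Fgf4 values were those of FNV cells, above NTC by 0.79 ± 0.14 (adjusted p = 0.000855). SOX2 and NTC cells differed by 0.13 ± 0.14 (adjusted p = 0.574). With the wave term, miniSOX cells were higher than NTC (1.11 ± 0.17, adjusted p = 0.000409) and SOX2 cells (0.98 ± 0.17, adjusted p = 0.000931). Their deposited values (1989 and 2006) lay just above the SOX2 (1694 and 1880) and NTC libraries. Without the wave term the changes were 0.30 (adjusted p = 0.624) and 0.16 (adjusted p = 0.877), and that of FNV against NTC had an adjusted p = 0.159. Against FNV cells the sign depended on the term, 0.33 ± 0.17 with it (adjusted p = 0.215) and -0.49 without (adjusted p = 0.427).

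Naive pluripotency markers moved with Fgf4 in several of these comparisons. Their summed value was 49319 to 50974 in FNV cells in SL, above the 28308 to 29778 of NTC and the 25380 to 26766 of SOX2 cells, as for Fgf4. Of the 11 markers, 6 were higher and 1 lower in FNV than in NTC cells in SL (median 0.92), and 7 and 1 against SOX2 cells. In 2i 1 was higher and 6 lower in FNV than in SOX2 cells. The shares that passed were 63.6%, 72.7% and 63.6%, where 30%, 21.4% and 25.2% of all genes did. The difference of this last contrast between media was lower for 8 markers and higher for 1 (median -1.19, beside the -1.08 of Fgf4). In miniSOX cells, 9 markers were higher in 2i than in SL (median 2.02), while the Fgf4 change did not pass. In each of these 81.8% of the list passed, where 20.8% and 33.4% of all genes did. MiniSOX cells in SL went against Fgf4, with the lowest sum of all groups (21072 to 21519). With the wave term, 1 marker was higher and 3 lower there than in NTC cells (limma). Against SOX2 cells 0 were higher and 4 lower, while Fgf4 passed as higher in both comparisons. Each count was 36.4% of the list, where 19.6% and 21.6% of all genes passed. The part of the naive markers in the Fgf4 result was not tested.

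Fgfr1 (ENSMUSG00000031565, chromosome 8, 25513654 to 25575718, plus strand) encodes the main FGF receptor of embryonic stem cells, and its mean was above that of 95.9% of genes. In 2i, FNV cells gave 4972, 5052, 4826 (p21) and 5395 (p31) and miniSOX cells 4232 and 4409. SOX2 cells gave 2697, 2579, 3265 (p21) and 3438 (p31), all below every FNV and miniSOX library. NTC cells gave 2463, 2413 and 5154 (p31), so the first-wave libraries sat with SOX2 cells and the p31 library among FNV cells. In SL, the values were 3966 and 3513 in NTC, 2601 in both SOX2 libraries, 3134 and 2987 in FNV and 2579 and 2659 in miniSOX cells. NTC was highest in SL and the rescue lines lay below it without overlap.

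In 2i Fgfr1 was higher in FNV than in SOX2 cells, by 0.77 ± 0.13 (SE) on the log2 scale (adjusted p = 0.000763). This held within the first wave (0.93, adjusted p = 2.03e-05) and within the second (0.61, adjusted p = 0.0155). In SL the difference was 0.23 ± 0.19 (adjusted p = 0.428), and the difference between media did not pass (0.53 ± 0.23, adjusted p = 0.122). Both passed within the first wave (0.23, adjusted p = 0.0233, and 0.69, adjusted p = 0.000691). The difference between media also passed without FNV p21 (0.64, adjusted p = 0.0445) and with only those groups in the model (0.53, adjusted p = 0.0259).

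Against NTC in 2i the result turned on the p31 library of NTC. Fgfr1 passed as higher in FNV cells (0.62 ± 0.15, adjusted p = 0.00337), with 1.04 within the first wave (adjusted p = 5.81e-06) and -0.01 within the second (adjusted p = 0.961). With only these groups in the model the call was lost (0.62, adjusted p = 0.0965). SOX2 cells differed from NTC by -0.14 ± 0.15 (adjusted p = 0.523), with 0.11 (adjusted p = 0.217) in the first wave and -0.62 (adjusted p = 0.0195) in the second. MiniSOX cells differed from NTC by 0.19 ± 0.19 (adjusted p = 0.506). Without NTC p31 this was 0.64 (adjusted p = 0.00122), and within the second wave -0.25 (adjusted p = 0.133). Against SOX2 cells, miniSOX cells differed by 0.33 ± 0.17 (adjusted p = 0.23; 0.37 and 0.0538 within the second wave). Against FNV cells they differed by -0.43 ± 0.17 (adjusted p = 0.144), which passed without FNV p21 (-0.57, adjusted p = 0.0367).

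**Figure D3:**
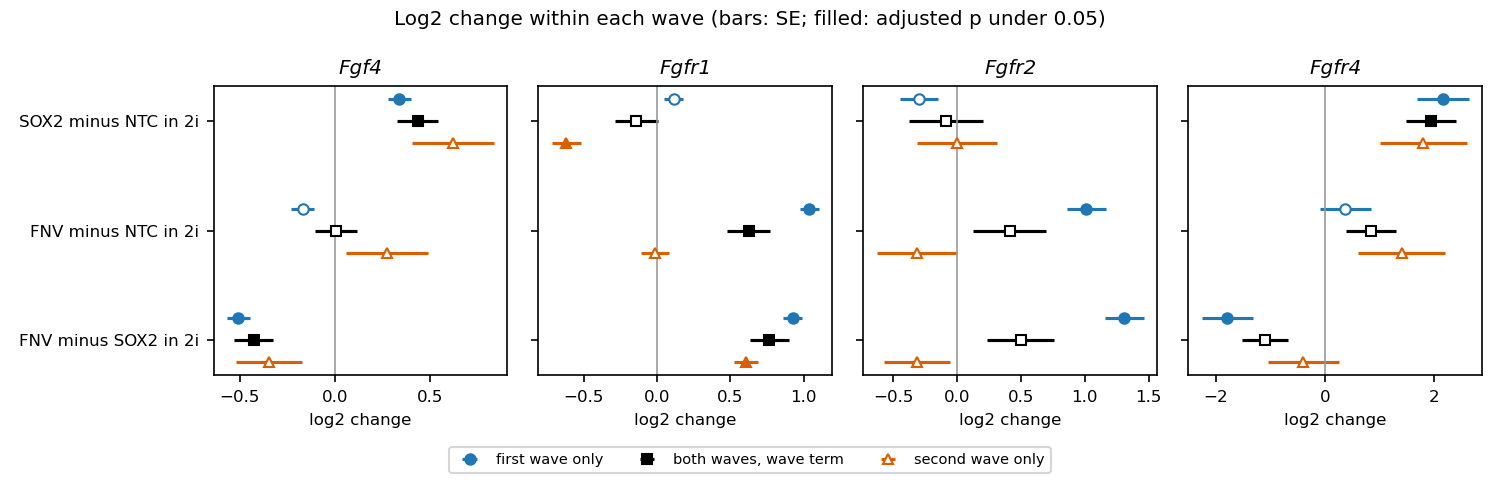
Log2 change (horizontal axis) in 2i for the 3 comparisons that both waves contain, for each member; circles are the first wave alone, squares both waves with a wave term, triangles the second wave alone, bars are SE and filled marks passed. For Fgfr1, FNV minus NTC goes from 1.04 in the first wave to -0.01 in the second, while FNV minus SOX2 is 0.93 and 0.61.

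Between media, Fgfr1 was higher in 2i in FNV (0.52 ± 0.17, adjusted p = 0.0268) and miniSOX cells (0.72 ± 0.19, adjusted p = 0.00885). In both lines all 2i libraries lay above all SL libraries. The changes in NTC (-0.39 ± 0.18, adjusted p = 0.127) and SOX2 cells (-0.01 ± 0.17, adjusted p = 0.965) did not pass, and the 95% interval in SOX2 cells was ± 0.37. The responses of FNV (0.91 ± 0.24, adjusted p = 0.0117) and miniSOX cells (1.11 ± 0.26, adjusted p = 0.0114) differed from that of NTC, and that of SOX2 cells did not pass (0.38 ± 0.24, adjusted p = 0.292). Within the first wave Fgfr1 was lower in 2i in NTC cells (-0.61, adjusted p = 0.000173) and higher in FNV cells (0.71, adjusted p = 3.68e-05). There the SOX2 difference from NTC passed too (0.63, adjusted p = 0.00133), as it did without NTC p31 (0.71, adjusted p = 0.00169).

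These Fgfr1 calls between media were close to the threshold. That in FNV cells ended without FNV replicate 1 (0.43, adjusted p = 0.0984) or 2 (0.41, adjusted p = 0.102) in 2i, or 1 (0.55, adjusted p = 0.0811) or 2 (0.49, adjusted p = 0.126) in SL. That in miniSOX cells ended without replicate 2 in 2i (0.69, adjusted p = 0.0549) or 1 in SL (0.70, adjusted p = 0.052), or without the wave term (adjusted p = 0.0522). Without NTC replicate 1 in SL the FNV (0.82, adjusted p = 0.0581) and miniSOX (1.03, adjusted p = 0.0527) differences from NTC ended. With no wave term the miniSOX difference was 0.98 (adjusted p = 0.103), and with only the groups compared in the model the FNV one was 0.90 (adjusted p = 0.0849).

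In SL, Fgfr1 was lower in miniSOX than in NTC cells (-0.92 ± 0.22, adjusted p = 0.00998). The change was -0.51 without the wave term (adjusted p = 0.183) and -0.83 without NTC replicate 1 (adjusted p = 0.061). For SOX2 (-0.52 ± 0.19, adjusted p = 0.0798) and FNV cells (-0.29 ± 0.19, adjusted p = 0.292) against NTC the test was not passed, while within the first wave alone both passed (adjusted p = 0.000753 and 0.00762). MiniSOX differed from FNV cells by -0.63 ± 0.22 (adjusted p = 0.0705), and by -0.22 without the wave term (adjusted p = 0.617). From SOX2 cells it differed by -0.40 ± 0.22 (adjusted p = 0.225), and by 0.01 without the term.

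Fgfr2 (ENSMUSG00000030849, chromosome 7, 130162451 to 133123350, minus strand) encodes the receptor known from epithelia and the trophectoderm. These annotated bounds overlap the spans of 69 other genes, Ctbp2 among them, against 0 or 1 for the other members. The Fgfr2 value was lower and spanned a wider range, 4.6 on the log2 scale from 19 to 485, against 1.45 for Fgf4 and 1.16 for Fgfr1. In SL it was 481 and 485 in NTC, 318 and 268 in miniSOX, 105 and 104 in SOX2 and 29 and 36 in FNV cells. No 2 lines overlapped in SL, where each had 2 libraries, and such overlap was not counted over all genes. In 2i it was 27, 26 and 96 (p31) in NTC, 19, 24, 85 (p21) and 108 (p31) in SOX2, 53, 56, 63 (p21) and 94 (p31) in FNV and 39 and 49 in miniSOX cells. The 2i groups of NTC, SOX2 and FNV overlapped each other.

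Fgfr2 fell in 2i against SL in NTC (log2 change -4.01 ± 0.35 (SE), adjusted p = 1.97e-06), SOX2 (-1.90 ± 0.34, adjusted p = 0.000422) and miniSOX cells (-2.71 ± 0.37, adjusted p = 6.18e-05). In FNV cells it was 0.27 ± 0.34 (adjusted p = 0.582), and 0.74 within the first wave (adjusted p = 0.00387). The FNV response differed from that of NTC by 4.27 ± 0.47 (adjusted p = 1.81e-05), and the SOX2 response by 2.11 ± 0.47 (adjusted p = 0.00645). That of miniSOX cells did not pass (1.30 ± 0.51, adjusted p = 0.111). In SOX2 cells in 2i the p31 library reached the SL level and p21 came near it, and without the wave term the change was -1.18 (adjusted p = 0.157). The SOX2 difference from NTC was then 2.35 (adjusted p = 0.12).

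In SL, Fgfr2 was lower than in NTC in SOX2 (-2.20 ± 0.37, adjusted p = 0.00143), FNV (-3.86 ± 0.37, adjusted p = 4.27e-06) and miniSOX cells (-2.16 ± 0.44, adjusted p = 0.00348). Without the wave term these were -2.20 (adjusted p = 0.0752), -3.86 and -0.72 (adjusted p = 0.508). FNV cells were lower than SOX2 cells (-1.66 ± 0.37, adjusted p = 0.0058; 0.147 with no wave term), and the difference between media passed (2.16 ± 0.46, adjusted p = 0.00429; 0.124 with no wave term). MiniSOX cells were higher than FNV cells by 1.70 ± 0.44 with the wave term (adjusted p = 0.0173) and by 3.14 without it (adjusted p = 0.00804). That call ended without FNV replicate 1 (1.55, adjusted p = 0.0835) or miniSOX replicate 1 (1.58, adjusted p = 0.0868). Against SOX2 cells, miniSOX was 0.04 ± 0.44 with the term (adjusted p = 0.957) and 1.47 without (adjusted p = 0.184), with deposited values of 268 and 318 against 104 and 105.

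In 2i, Fgfr2 was lower in miniSOX than in FNV cells (-1.27 ± 0.34, adjusted p = 0.0363), but only -0.80 within the second wave (adjusted p = 0.202). The call ended without FNV replicate 1 (-1.17, adjusted p = 0.0614) or 2 (-1.15, adjusted p = 0.0559), without miniSOX replicate 1 (-1.11, adjusted p = 0.235) or 2 (-1.43, adjusted p = 0.143), and with no wave term (-0.56, adjusted p = 0.743). FNV against SOX2 was 0.50 ± 0.26 (adjusted p = 0.19), with 1.31 in the first wave (adjusted p = 0.00031) and -0.31 in the second (adjusted p = 0.579). FNV against NTC was 0.41 ± 0.29 (adjusted p = 0.283), with 1.01 (adjusted p = 0.000821) and -0.31 (adjusted p = 0.559). Without FNV p21 they were 0.79 (adjusted p = 0.0161) and 0.67 (adjusted p = 0.0367). SOX2 against NTC was -0.09 ± 0.29 (adjusted p = 0.87). MiniSOX against NTC (-0.86 ± 0.37, adjusted p = 0.103) and SOX2 (-0.77 ± 0.34, adjusted p = 0.152) passed only in a model of the compared groups (-1.12 and -1.11, adjusted p = 0.0211 and 0.0299).

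Trophectoderm markers moved with Fgfr2 in part. All 10 of 10 listed markers were measured, and their summed value in SL was 11040 to 11179 in NTC, 18414 to 18529 in miniSOX, 1699 to 2591 in SOX2 and 2503 to 2531 in FNV cells. NTC and miniSOX cells, which had the highest Fgfr2, had the highest sums, but the miniSOX libraries are of the second wave and the others of the first. In the second wave 7 of these markers were higher and 0 lower (limma, 0 lower at an unadjusted p under 0.05 too), with a median of 1.65 beside the 1.43 of Fgfr2. With the wave term, 1 marker was higher and 0 lower in miniSOX than in NTC cells in SL (2 lower at an unadjusted p under 0.05), with a median near 0. These counts were 70% and 10% of the list, where 37.7% and 19.6% of all genes passed. In 2i the sum was 1256 to 2808 in NTC, 830 to 1471 in SOX2, 2601 to 2667 in miniSOX and 5301 to 7379 in FNV cells. The defining marker Cdx2 was listed at 0 in both FNV libraries in SL, and no other group had a marker at 0 in all its libraries. Fewer cells of a type and less RNA per cell cannot be told apart in bulk samples, and the part of trophectoderm-type cells in the Fgfr2 result was not tested. Exons of Fgfr2 overlap those of Ctbp2, a transcriptional corepressor gene, and whether reads were counted by strand was not stated in the labels. In SL Ctbp2 was 3014 to 3134 in NTC, 4232 to 4306 in SOX2, 2054 to 2565 in FNV and 2413 to 2503 in miniSOX cells, and in 2i 1708 to 1851, 1487 to 1545, 883 to 1082 and 1022 to 1146. It was lower in 2i in every line, as Fgfr2 was in all but FNV cells, and highest in SOX2 cells in SL, where Fgfr2 was below NTC. Its r with Fgfr2 over the 21 libraries was 0.47, and the part of shared reads was not tested.

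Fgfr4 (ENSMUSG00000005320, chromosome 13, 55152640 to 55168759, plus strand), the receptor best known from liver and bile acid control, had the lowest values, 4 to 79, and 15.5% of genes had a lower mean. In SOX2 cells it was 79, 63, 22 (p21) and 18 (p31) in 2i and 36 and 50 in SL. NTC cells gave 15, 15 and 5 (p31) in 2i, with 15 and 4 in SL, all below every SOX2 library. FNV cells gave 23, 17, 27 (p21) and 8 (p31) in 2i, and their SL libraries 42 and 40. MiniSOX cells were as low as NTC, with 2i libraries at 7 and 13 and SL libraries at 9 and 6.

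In 2i Fgfr4 was higher in SOX2 than in NTC cells, by 1.94 ± 0.46 (SE) on the log2 scale (adjusted p = 0.00579). Within waves the change was 2.16 (first, adjusted p = 0.00795) and 1.80 (second, adjusted p = 0.225). In SL, SOX2 (2.28 ± 0.59, adjusted p = 0.0189) and FNV cells (2.23 ± 0.59, adjusted p = 0.0113) were both higher than NTC and differed from each other by -0.05 ± 0.59 (adjusted p = 0.992), with a 95% interval of ± 1.27. Both calls rested on small values. Without NTC replicate 2 in SL they were 1.44 (adjusted p = 0.195) and 1.39 (adjusted p = 0.145), and without the wave term their adjusted p were 0.0873 and 0.0514. The SOX2 call also ended without SOX2 replicate 1 (2.51, adjusted p = 0.0528) or 2 (2.05, adjusted p = 0.112), and the FNV call without FNV replicate 1 (2.20, adjusted p = 0.0533) or 2 (2.27, adjusted p = 0.0521). With only the groups compared in the model neither passed (adjusted p = 0.125 and 0.0866).

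The remaining Fgfr4 comparisons did not pass. In 2i FNV cells differed from SOX2 cells by -1.09 ± 0.42 (adjusted p = 0.0724). That difference passed within the first wave (-1.78, adjusted p = 0.0195), without FNV p21 (-1.55, adjusted p = 0.00483) and with a pseudocount of 10 (-0.82, adjusted p = 0.0393), and it was -0.40 (adjusted p = 0.817) within the second wave. FNV (0.85 ± 0.46, adjusted p = 0.162) and miniSOX cells (0.65 ± 0.59, adjusted p = 0.467) were not separated from NTC in 2i. MiniSOX against SOX2 cells was -1.29 ± 0.55 in 2i (adjusted p = 0.135) and -1.21 ± 0.70 in SL (adjusted p = 0.24), which without the wave term was -2.38 (adjusted p = 0.0471). In SL, miniSOX was -1.16 ± 0.70 against FNV (adjusted p = 0.3) and 1.07 ± 0.70 against NTC cells (adjusted p = 0.318), and -2.33 (adjusted p = 0.054) and -0.096 (adjusted p = 0.968) without the term. Between media the changes were 0.76 ± 0.56 for NTC, 0.42 ± 0.55 for SOX2, -0.63 ± 0.55 for FNV and 0.34 ± 0.59 for miniSOX cells (adjusted p = 0.365, 0.569, 0.401 and 0.727).

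To set the members against each other, values were divided by the length of the longest annotated transcript in kilobases. Whether the deposited score already took length into account is not known. Over all genes, Spearman's rho with length was 0.24 for the mean value and -0.11 after division. Before division Fgfr1 had the higher mean in NTC cells in 2i, 3343 against 2203 for Fgf4. In NTC cells in 2i the level per kilobase was 727 ± 271 (SD, n = 3) for Fgf4, 663 ± 311 for Fgfr1, 11.2 ± 9.06 for Fgfr2 and 3.51 ± 1.74 for Fgfr4. Fgf4 and Fgfr1 stood far above the other receptors, but the like means hide a reversal between waves. Fgf4 was 869.6 and 896 per kilobase against 489 and 479 for Fgfr1 in the first-wave libraries, and 415 against 1022 in p31. In SL the level of Fgfr2 was 109 ± 0.639 (SD, n = 2) in NTC, 66.2 ± 7.98 in miniSOX, 23.6 ± 0.16 in SOX2 and 7.34 ± 1.12 in FNV cells, and that of Fgfr1 741.8 ± 63.5, 519 ± 11.2, 516 ± 0 and 607 ± 20.6. In FNV cells in SL, Fgfr4 (12.3 ± 0.426) stood above Fgfr2, the reverse of NTC cells (2.86 ± 2.34). This order was not particular to FNV cells. In first-wave SOX2 cells in 2i, Fgfr4 was 23.77 and 18.95 per kilobase against 4.29 and 5.42 for Fgfr2. In their p21 and p31 libraries Fgfr2 was the higher. With the union of all exons as the length, Fgfr1 in NTC cells in 2i was 339 ± 159 and Fgf4 689 ± 257, so the distance between these genes rests on the length used.

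The group means were ordered as follows. For Fgf4 the highest was FNV in SL (2810 ± 40.3 (SD), n = 2) and the lowest NTC in SL (1628 ± 65.8, n = 2), and only the lowest pair of neighbours, SOX2 and NTC in SL, did not overlap. For Fgfr1, FNV (5061 ± 241, n = 4) and miniSOX in 2i (4320 ± 125, n = 2) led, and the 3 highest groups were separate from one another. The lowest Fgfr1 groups, miniSOX (2619 ± 56.6) and SOX2 in SL (2601 ± 0), overlapped. For Fgfr2 the order was NTC (483 ± 2.83), miniSOX (293 ± 35.4) and SOX2 in SL (104.5 ± 0.707), then the 2i groups, then FNV in SL (32.5 ± 4.95). For Fgfr4 the highest were SOX2 in 2i (45.5 ± 30.2), SOX2 in SL (43 ± 9.9) and FNV in SL (41 ± 1.41), which overlapped, and the lowest miniSOX in SL (7.5 ± 2.12).

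Other genes of the route were taken from fixed lists. Their counts between media are to be read against the share of all genes that passed, which was 24.6% in NTC, 44.9% for SOX2, 40.6% for FNV and 33.4% for miniSOX. Of 17 other FGF ligands 8 were measured. Fgf3, a ligand gene close to Fgf4 in the genome, was 96, 87 and 93 in NTC cells in 2i, with 6 and 5 in SL, a rise of 3.83 ± 0.38 (SE) on the log2 scale (adjusted p = 6.47e-06). It was 20 to 28 in SOX2 cells in 2i, below NTC (-1.85 ± 0.31, adjusted p = 0.000573), and 2 or 3 in FNV and miniSOX cells in 2i. Its change against SOX2 cells was -2.79 ± 0.29 in FNV (adjusted p = 7.59e-06) and -3.12 ± 0.37 in miniSOX cells (adjusted p = 8.41e-05). Within the second wave the change of SOX2 against NTC was -1.93 (adjusted p = 0.105). Fgf5, a marker of primed cells, was listed at 0 or 1 in every 2i library and reached 187 and 145 in miniSOX cells in SL. Over the 8 ligands, 1 rose in 2i in each line, and the number that fell was 1 for NTC, 3 for SOX2, 4 for FNV and 2 for miniSOX, together 25%, 50%, 62.5% and 37.5% of the list. With replicates 1 and 2 averaged, 11 of 83 calls of the named pathway genes still passed. Among them were FNV against SOX2 in 2i for Fgf3, Gpc3, Sulf1, Map2k1, Spred1, Etv4 and Kit, and SOX2 against NTC in 2i for Sdc3 (adjusted p = 0.0197 to 0.0381). The 83 calls had been picked for a small p in their lists, so this count cannot be set against that of the unpicked member results. After the same averaging, 465 of all 16443 genes passed for FNV against SOX2 and 188 for SOX2 against NTC in 2i.

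Feedback inhibitors of the ERK route (Sprouty, Spred and DUSP genes) fell in 2i or did not pass. Of 12 measured, 6 fell in NTC, as did 9 in SOX2 cells, 6 with FNV and 8 with miniSOX, and 0 rose in limma, also at an unadjusted p under 0.05, with medians of -0.43, -0.93, -0.95 and -1.39 against -0.02 to 0.03 over all genes. These were 50%, 75%, 50% and 66.7% of the list, where 12.8%, 22.5%, 20.4% and 16.4% of all genes passed as lower. In NTC cells 3 passed without replicate 1 in SL, and within the first wave 10 passed in FNV cells. Dusp6, an ERK phosphatase, was 172 to 303 in NTC and 51 to 120 in SOX2 cells in 2i, and 8 to 58 in FNV and 17 and 33 in miniSOX cells. FNV cells were lower than SOX2 cells (-1.70 ± 0.42, adjusted p = 0.00793), though with only these groups in the model the call was lost (adjusted p = 0.0859), as it was within the second wave (-2.28, adjusted p = 0.206).

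Spred1, which restrains RAS, was 306 to 370 in FNV and 357 and 359 in miniSOX cells in 2i, against 572 to 843 in SOX2 and 873 to 1265 in NTC cells. No library of the FNV and miniSOX groups overlapped those of SOX2 or NTC. It fell against SOX2 cells in FNV (-1.08 ± 0.08, adjusted p = 3.32e-07) and miniSOX cells (-1.15 ± 0.10, adjusted p = 4.46e-06) in 2i, and in FNV cells in SL (-0.97 ± 0.11, adjusted p = 3.06e-05). Within the second wave the 2i changes were -1.27 (adjusted p = 0.00211) and -1.23 (adjusted p = 0.00255). Of the 12 inhibitors, 3 fell in FNV against SOX2 cells in 2i (6 within the first wave) and 6 in SL. The 2i share, 25%, was that of all genes that passed (25.2%), and in SL 50% stood beside 21.4%. The SL count was 1 without FNV replicate 2 or SOX2 replicate 1, 2 without SOX2 replicate 2 and 3 without FNV replicate 1.

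Of 12 target genes measured, 4 were lower and 1 higher in 2i in NTC cells. The same numbers were 9 and 1 for SOX2, 6 and 0 for FNV (0 higher in limma at an unadjusted p under 0.05 too), and 5 and 1 for miniSOX. The shares that passed were 41.7%, 83.3%, 50% and 50%. The medians of the list were -0.84 (NTC), -1.43 (SOX2), -0.76 (FNV) and -1.0 (miniSOX). The NTC count of 5 became 3 without replicate 1 in 2i and 2 without either SL replicate, and was 10 within the first wave. Etv4, a PEA3-family factor induced by FGF, was 22, 18, 15 (p21) and 129 (p31) in FNV and 46 and 61 in miniSOX cells in 2i, against 777 to 958 in SOX2 and 1025 to 1379 in NTC cells. Against SOX2 cells its log2 change was -4.77 ± 0.43 (SE) in FNV (adjusted p = 2.76e-06) and lower also in miniSOX cells (-4.25 ± 0.56, adjusted p = 0.00019). Within the second wave the changes were -4.29 (adjusted p = 0.054) and -4.04 (adjusted p = 0.0542). In SL Etv4 was 1834 and 2016 in FNV, 1521 and 1716 in miniSOX, 2602 and 2621 in SOX2 and 1554 and 1627 in NTC cells, where FNV against SOX2 did not pass (-0.44 ± 0.61, adjusted p = 0.664). The FNV against SOX2 difference in Etv4 differed between media (-4.32 ± 0.74, adjusted p = 0.00118). The immediate early gene Egr1 was 436 and 169 in SOX2 cells in SL and 14 and 16 in FNV cells (-4.09 ± 0.65, adjusted p = 0.000597). It was 18 to 24 in NTC and 8 to 14 in miniSOX cells in SL, so SOX2 cells were the line that stood apart. Junb, another named pathway gene, went the other way, with 33 to 63 in SOX2 and 181 to 560 in FNV cells in SL. Its change was 2.78 ± 0.50 (adjusted p = 0.00133), and with only these groups in the model the adjusted p was 0.0791.

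**Figure D4:**
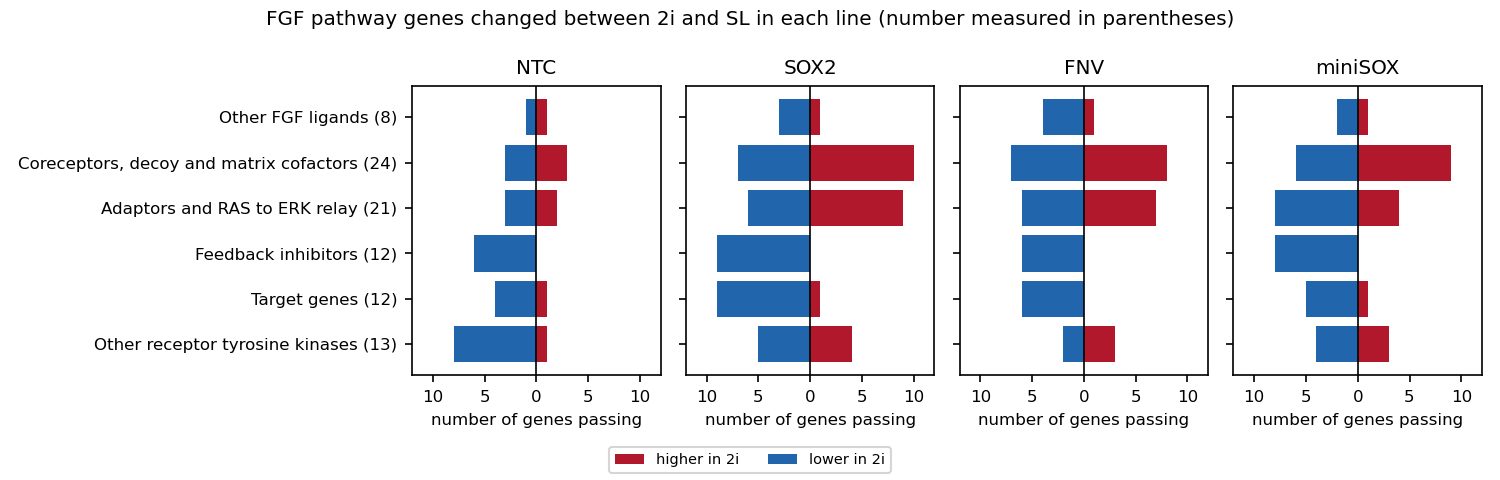
Number of genes of each pathway list (rows, number measured in parentheses) that passed between 2i and SL in each line, drawn to the right where higher in 2i and to the left where lower. Feedback inhibitors have bars only to the left in all 4 panels (6, 9, 6 and 8 genes).

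Of 24 cofactors that hold FGF at the cell surface or in the matrix, 3 rose and 3 fell in 2i in NTC (11 passed within the first wave), against 10 and 7 for SOX2, 8 and 7 for FNV and 9 and 6 for miniSOX. The NTC share, 25%, was near that of all genes, and the others were 70.8%, 62.5% and 62.5%. Gpc3, a glypican, was 1124 to 1972 in NTC and 219 to 585 in SOX2 cells in 2i and 64 to 102 in FNV and miniSOX cells. It was lower in FNV (-2.24 ± 0.20, adjusted p = 2.43e-06) and miniSOX cells (-2.14 ± 0.26, adjusted p = 9.62e-05) than in SOX2 cells, and the syndecan Sdc3 ran the other way. Sdc3 was 16 to 42 in NTC, 156 to 392 in SOX2 and 469 to 772 in FNV cells in 2i, higher in SOX2 than in NTC (3.25 ± 0.25, adjusted p = 8.06e-07). Sulf1, which trims heparan sulphate and lowers FGF binding, was 214 to 280 in NTC, 72 to 125 in SOX2 and 37 to 46 in FNV cells in 2i (FNV against SOX2 -1.16 ± 0.13, adjusted p = 1.88e-05).

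Of 21 adaptor and RAS to ERK genes, 2 rose and 3 fell in 2i in NTC, against 9 and 6 for SOX2, 7 and 6 for FNV and 4 and 8 for miniSOX. The NTC share, 23.8%, was near that of all genes, and the others were 71.4%, 61.9% and 57.1%. In NTC 3 passed without either SL replicate and 11 within the first wave, and in miniSOX 7 without replicate 2 in 2i. Map2k1, which encodes MEK1, was 1201 to 1341 in FNV and 1239 and 1370 in miniSOX cells in 2i, below the 1786 to 1945 of SOX2 cells (-0.54 ± 0.05, adjusted p = 3.23e-06, and -0.48 ± 0.07, adjusted p = 0.000252). Of 13 other receptor tyrosine kinases, 1 rose and 8 fell in NTC (5 passed without replicate 2 in SL), 4 and 5 in SOX2, 3 and 2 in FNV (9 passed within the first wave or without p31) and 3 and 4 in miniSOX cells. These were 69.2%, 69.2%, 38.5% and 53.8% of the list. Kit, the stem cell factor receptor, was 749 to 1428 in FNV and 3481 to 3819 in SOX2 cells in 2i (-1.82 ± 0.14, adjusted p = 6.24e-07), the opposite order to Fgfr1. Pdgfra, a primitive endoderm marker, was 180 and 140 in NTC, 174 and 157 in SOX2 and 33 and 24 in FNV cells in SL (FNV against SOX2 -2.51 ± 0.31, adjusted p = 6.7e-05), the same order of FNV and SOX2 as for Fgfr2. In miniSOX cells in SL Pdgfra was 61 to 66, below SOX2 cells, where the deposited Fgfr2 values were above them. Of 7 primitive and visceral endoderm markers measured, 0 were higher and 3 lower in FNV than in SOX2 cells in SL (limma). In 2i 4 were higher and 0 lower. These were 42.9% and 57.1% of the list, where 21.4% and 25.2% of all genes passed.

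The genes whose pattern over the 21 libraries was most like each member were found by Pearson's r of log2 values, given as a description since libraries share groups and waves. For Fgf4 they were the ribosomal protein gene Rplp2 (r = 0.909), Slc25a33 (0.888), Naa30 (0.881), Rpl12 (0.869) and Eif1 (0.864). For Fgfr1 they were Stxbp3 (0.921), Ptprz1 (0.9), Snx1 (0.894), Fbp2 (0.889) and Rragd (0.869). For Fgfr2 they were the kinase gene Akt1 (0.912), Plekhg2 (0.903), Anxa5 (0.902), Cdc42ep1 (0.895) and Tdrd7 (0.883), and for Fgfr4 Elovl2 (0.874), Kctd12 (0.871), Hist3h2a (0.864), Serac1 (0.86) and Rnf157 (0.856). No member was among the 5 nearest genes of another. Between members r over 21 libraries was -0.703 for Fgf4 with Fgfr2, 0.621 for Fgf4 with Fgfr4, -0.566 for Fgfr2 with Fgfr4, -0.487 for Fgf4 with Fgfr1, -0.382 for Fgfr1 with Fgfr4 and 0.106 for Fgfr1 with Fgfr2. Over the means of the 8 groups these were -0.748, 0.479, -0.517, -0.158, -0.315 and -0.143, so the value for Fgf4 with Fgfr1 was smaller and that for Fgfr1 with Fgfr2 changed sign. Over the same means, 0, 1, 1 and 2 of the 5 nearest genes of Fgf4, Fgfr1, Fgfr2 and Fgfr4 were again among the nearest 5.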

How the data were processed

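Poly(A) RNA of 21 libraries was sequenced after Trizol extraction, oligo(dT) selection and random priming, per the labels' protocols. Per the submitters' processing notes RSEM, Bowtie2 2.0 and the mm10 genome were used. The deposited whole numbers are taken as a score, not as counts. Their near-equal totals, and the 66.3% of ranks that hold 1 value in every library, show that the authors normalized them between libraries before deposit, by a method not given in the sources used here. Column names matched 16 columns to single samples and 5 (p21 and p31) to a group only.

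All genes were fitted with limma 3.58.1 in R 4.3.3 (trend and robust) on log2(value + 1), which understates changes of low genes, leaving 12 residual degrees of freedom. P-values are two-sided, with Benjamini-Hochberg adjustment over 16443 genes. The model was also run on simulated data with independent noise and no wave shift. That run cannot speak for wave effects or for replicates that are technical. Locations are from GENCODE M21. Named pathway genes were drawn from the up to 3 of each list with the smallest adjusted p in 5 comparisons; their other values are descriptive. The members and lists were chosen with earlier results of these data known. Alternatives are in the closing section.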

Additional observations from a re-analysis of the deposited data

Results flagged for a closer look

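Each result here is a response that differed between 2 groups by a limma test of the difference itself (adjusted p under 0.05). For the step from SL to 2i, the log2 change of Fgfr2 was higher than in NTC cells by 2.11 in SOX2 and by 4.27 in FNV cells, that of Fgfr1 by 0.91 in FNV and 1.11 in miniSOX cells, and that of Fgf4 differed by -0.78 in FNV cells. For FNV against SOX2 cells, the log2 difference in 2i minus that in SL was -1.08 for Fgf4 and 2.16 for Fgfr2. With replicates 1 and 2 averaged none of these values passed in limma. With no wave term the SOX2 and miniSOX differences from NTC did not pass. Neither did that of Fgf4 in FNV cells or those of FNV against SOX2 cells. NTC and rescue lines differ in doxycycline, transduction and silencing as well, so these cannot be told apart in the first 5 values, and all of them share the NTC or SOX2 libraries. Sox17 was also higher in SL than in 2i in FNV and miniSOX cells, and its part in these values was not tested. Single libraries were checked by Dixon's rule only in the 2 groups of 4, SOX2 and FNV in 2i, for the 4 members. None passed, but each group holds 2 libraries of each wave, which can hide a library apart. NTC p31 is in a group of 3 and was not checked.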

How the results depend on the processing

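Of 80 log2 changes of the members, leaving out 1 library at a time left 459 values on their side of the threshold with the same sign, while 24 lost and 10 gained a call and 15 changed sign. The other alternatives gave 730, 71, 24 and 19. For the 83 named pathway changes, whose alternatives were chosen after seeing the data as were those of the list counts, 440 values held and 55 lost the call on leaving out a library, and 799 and 136 otherwise. None changed sign. The cause was not tested except where fewer genes or samples entered by construction. Replicate numbers did not pair samples (r from -0.09 to 0.09 over 28 pairs of groups). The fit with the replicate block changed no member call (Fgf4 in SOX2 minus NTC in 2i, 0.43) and ended 1 pathway call (Fgf7 in that comparison, -4.69).

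Members that passed, with replicates 1 and 2 averaged, were 0 in all 19 comparisons that had any. With genes of a mean of at least 50 only, SOX2 minus NTC had 1 in 2i and 1 in SL. With no wave term the counts in 2i were 1 for SOX2 minus NTC, 0 for miniSOX minus NTC, 1 for FNV minus SOX2 and 0 for miniSOX minus FNV. In SL they were 0, 1 and 0 for SOX2, FNV and miniSOX minus NTC and 0 for FNV minus SOX2. For 2i minus SL they were 1 in NTC, 0 in SOX2 and 1 in miniSOX, and for the differences 0 (SOX2 from NTC), 0 (miniSOX from NTC) and 0 (FNV minus SOX2 between media). In the first wave alone 2 passed for FNV minus NTC in 2i, 4 for FNV minus SOX2 in 2i, 3 for 2i minus SL in FNV and 2 for SOX2 from NTC. In the second wave the 2i counts were 1 (SOX2 minus NTC), 0 (FNV minus NTC), 1 (FNV minus SOX2) and 0 (miniSOX minus FNV). With only the groups compared in the model they were 0 for FNV minus NTC, 3 for miniSOX minus NTC, 1 for FNV minus SOX2, 3 for miniSOX minus SOX2 and 0 for miniSOX minus FNV in 2i, and 1 (FNV from NTC) and 3 (miniSOX from NTC) for differences. This model could not be fitted with a wave term for miniSOX in SL.

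Leaving out 1 library, the count in 2i was 1 to 2 for SOX2, FNV and miniSOX minus NTC, 2 to 4 for FNV minus SOX2 and 0 to 3 for miniSOX minus FNV. In SL it was 1 to 2 for SOX2 minus NTC and 0 to 1 for miniSOX minus FNV. For 2i minus SL it was 0 to 2 in FNV and 1 to 2 in miniSOX, and for differences from NTC 1 to 2 (SOX2) and 0 to 1 (miniSOX).

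Signs turned with no wave term for Fgfr2 in SOX2 minus NTC (0.15) and miniSOX minus NTC (0.096), Fgf4 in FNV minus NTC (-0.13) and miniSOX minus SOX2 (-0.19) and Fgfr4 in miniSOX minus NTC (-0.12), all in 2i. They also turned for Fgfr4 in miniSOX minus NTC (-0.096), Fgfr1 in miniSOX minus SOX2 (0.0098) and Fgf4 in miniSOX minus FNV (-0.49) in SL, and for Fgfr1 (0.19) and Fgfr4 (-0.17) in 2i minus SL in SOX2. In the first wave alone Fgfr1 turned in SOX2 minus NTC (0.11) and 2i minus SL in SOX2 (0.02001), and Fgf4 in FNV minus NTC (-0.17). In the second, Fgfr1 (-0.014) and Fgfr2 (-0.315) turned in FNV minus NTC, Fgfr1 in miniSOX minus NTC (-0.25) and Fgfr2 in FNV minus SOX2 (-0.31). With only the groups compared, Fgfr1 turned in miniSOX minus NTC in 2i (-0.25) and 2i minus SL in SOX2 (0.02001). Leaving out 1 library, Fgfr1 ranged from -0.26 to 0.19 and Fgfr2 from -0.26 to 0.13 in SOX2 minus NTC in 2i, Fgf4 from -0.13 to 0.073 in FNV minus NTC in 2i, Fgfr4 from -0.60 to 0.44 in miniSOX minus FNV in 2i and from -0.28 to 0.18 in FNV minus SOX2 in SL, and Fgfr2 from -0.081 to 0.16 in miniSOX minus SOX2 in SL. For 2i minus SL, Fgfr4 ranged from -0.083 to 1.60 in NTC and from -0.065 to 0.74 in miniSOX, Fgfr1 from -0.046 to 0.0045 in SOX2 and Fgfr2 from -0.0014 to 0.45 in FNV. The Fgfr4 difference from NTC ranged from -1.18 to 0.50 in SOX2 and from -1.26 to 0.42 in miniSOX. None of these Fgfr4 results had passed.

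Pathway genes that passed in 2i minus SL with replicates averaged numbered, for ligands, cofactors, relay, feedback, targets and other kinases in that order, 0, 0, 0, 0, 1 and 0 for NTC, 0, 3, 0, 2, 2 and 3 for SOX2, 2, 5, 2, 2, 1 and 0 for FNV, and for miniSOX 1, 2, 0, 1, 1 and 1. Feedback genes in FNV minus SOX2 were 1 in 2i and 0 in SL. In the first wave alone cofactors numbered 11, relay 11 and targets 10 in NTC, feedback 10 and kinases 9 in FNV, and feedback 6 in FNV minus SOX2 in 2i. With a mean of at least 50 ligands were 0 for NTC, 0 for SOX2, 1 for FNV and 1 for miniSOX. With no wave term relay was 3 and targets 3 in NTC, and feedback 2 in FNV minus SOX2 in SL. With only the groups compared ligands were 1, cofactors 10, relay 10 and targets 9 in NTC, targets 3 and kinases 3 in FNV, and feedback 1 in FNV minus SOX2 in 2i. Leaving out 1 library gave 3 to 7 relay, 3 to 7 feedback, 2 to 7 target and 5 to 10 kinase genes in NTC, 4 to 9 kinase genes in FNV, 7 to 11 relay genes in miniSOX and 1 to 3 feedback genes in FNV minus SOX2 in SL.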
